A study of Arabidopsis thaliana with 36 samples.

Results

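The response described here is that of the base of the wounded hypocotyl in the Arabidopsis thaliana mutant ahk3 ahk4, as the difference between ahk3 ahk4 basal segments 8 h after wounding and ahk3 ahk4 basal segments at 0 h. The members were picked out by their labels, which name genotype, region and time, with earlier results of these data known. They are 6 of the 36 libraries of the series, 3 biological replicates at each time. Each library was read over the 32833 loci of the count files. Each library holds 3' mRNA tags (QuantSeq, which reads transcripts near their 3' end). The hypocotyl, the stem between root and cotyledons, was cut above the junction with the root, and short segments were taken from its basal end, beside the cut, or from the medial region higher up. A hypocotyl without its root can form new, adventitious roots at the base, and the series is titled for the factors that set reprogramming competence there. The groups set beside it were WT basal segments at 8 h and at 0 h, from the accession Col-0, and ahk3 ahk4 medial segments at 8 h and at 0 h, again 3 libraries each. All seedlings had been raised in low light, no label gives the light after cutting, and all segments, the WT ones included, were from wounded hypocotyls. The mutant carries lesions in the genes of 2 cytokinin receptors. The sources used here do not give its alleles, its background or the number of seedlings pooled in a replicate. No group was left uncut until 8 h, and the effects of the wound and of the hour of sampling cannot be told apart.

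Cytokinin is perceived by membrane histidine kinases, AHK2, AHK3 and AHK4, which pass phosphate through the AHP proteins to type-B response regulators, transcription factors that activate their targets. Among those targets are the type-A response regulators, which dampen the signal. In root formation cytokinin is known to oppose auxin, which acts by removing Aux/IAA repressors and induces LBD genes in the cells that found a root.

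The libraries held 12994194, 10616672 and 12320956 reads assigned to genes at 8 h, and 9113339, 6136167 and 9137274 at 0 h. Reads aligned at more than 1 place made up 20.43%, 11.04% and 10.53% of a library at 8 h, against 54.27%, 60.31% and 44.22% at 0 h. They were not counted for any gene, and their part in the results was not tested. Reads of the plastid genome were 0.78%, 0.52% and 0.39% of the assigned reads at 8 h, and 1.67%, 1.77% and 1.47% at 0 h, and 43 of its 84 tested genes fell while 1 rose. Among the libraries of 8 h, replicate 2 stood apart for some genes, such as the jasmonate repressor gene JAZ1 with 948, 114 and 819 CPM at 8 h and 1173, 1480 and 859 CPM at 0 h. CPM are read counts relative to the library total, put on a common scale with TMM factors.

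Of 19819 genes tested, 4620 (23.3%) were higher at 8 h and 3898 (19.7%) were lower, at an adjusted p under 0.05 in edgeR's quasi-likelihood test. At least a 2-fold change was fitted for 3767 of the higher and 3230 of the lower genes, and at least a 16-fold change for 437 and 389. Among the higher genes 206 had no count in the 3 libraries of 0 h, and among the lower ones 160 had none in those of 8 h. The median log2 fold change over all genes tested was 0.02, and the medians of the called genes were 1.61 for the higher and -1.71 for the lower. With bulk RNA of a whole segment, fewer cells of a type and less RNA per cell cannot be told apart. The 3 libraries of 8 h all lay above the 3 of 0 h for 5302 genes (26.8%) and all below them for 4829 (24.4%). The plot of gene lists sets the members of 20 groups beside each other.

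**Figure D1:**
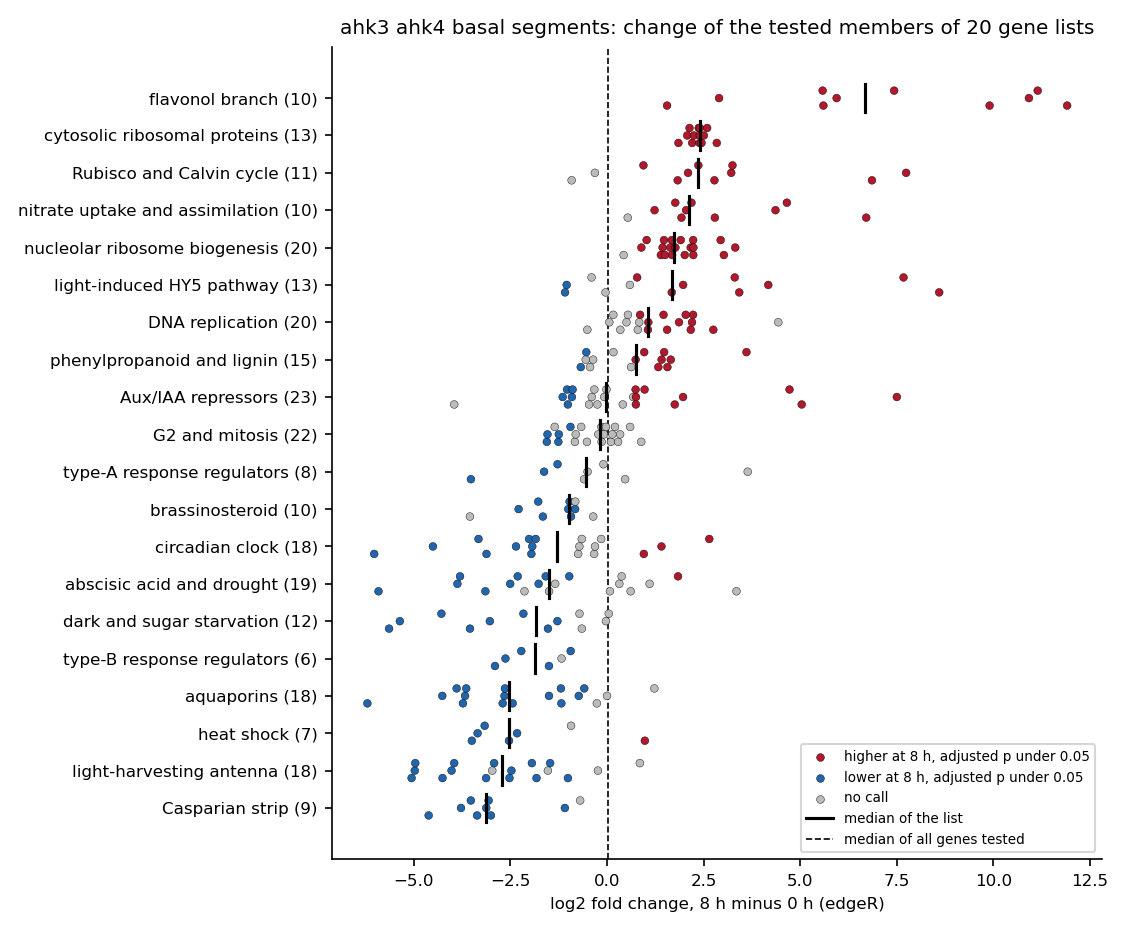
Log2 fold change, 8 h minus 0 h, in ahk3 ahk4 basal segments (x axis) for every tested member of 20 gene lists (rows, number tested in brackets). Each point is 1 gene, coloured by its call at an adjusted p under 0.05, the short bars are list medians and the dashed line is the median of all genes tested, 0.02; flavonol genes have a median of 6.69 and Casparian strip genes one of -3.12.

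AHK3 had 3.25, 1.33 and 7.91 CPM at 8 h and 8.71, 3.38 and 8.63 CPM at 0 h in ahk3 ahk4 basal segments. In WT basal segments it had 43.9 to 51.4 CPM at 8 h and 138 to 164 CPM at 0 h, so the mutant lay below WT at both times. AHK4 stood at 2.14, 1.44 and 1.46 CPM at 8 h and at 0.726, 0.161 and 0.305 CPM at 0 h in the mutant, against 6.88 to 8.24 CPM at 8 h and 9.63 to 14.1 CPM at 0 h in WT. Both genes were lower in the mutant in all libraries compared. With the alleles not given, a 3' tag may lie outside a disrupted part and would then check nothing. AHK4 rose within the mutant (log2 fold change 1.99 ± 0.63 SE, adjusted p = 0.0107), at levels of few reads, and its adjusted p reached 0.0513 with 1 library left out. AHK2, the receptor gene that the mutant keeps, had 1.4, 1.44 and 0.946 CPM at 8 h and 2.7, 6.92 and 5.28 CPM at 0 h. It fell without overlap of the libraries (-1.96 ± 0.58, adjusted p = 0.00651).

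Downstream of the receptors, the type-B regulator genes were mostly lower at 8 h. Of 6 tested type-B regulators 0 rose and 5 fell, where 23.3% of all genes rose and 19.7% fell, and their median was -1.86 against 0.02 for all genes. ARR1, a type-B activator of cytokinin targets, had 11.8, 4.99 and 9.11 CPM at 8 h and 66.6, 85.8 and 42.5 CPM at 0 h (-2.90 ± 0.37, adjusted p = 6.58e-08). ARR2, ARR11, ARR12 and ARR10 fell too, with log2 changes from -2.63 to -0.94. ARR14 did not pass the test (-1.17 ± 1.10), and the remaining type-B gene of the list, ARR18, had no count.

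ARR5, a type-A gene widely used as a cytokinin reporter, had 6.12, 7.2 and 4.81 CPM at 8 h and 57.2, 85.8 and 65.2 CPM at 0 h. Every library of 8 h lay far below every library of 0 h (-3.52 ± 0.40, adjusted p = 9.08e-09). Of 8 tested type-A genes 3 fell and 0 rose, the others being ARR4 (-1.28 ± 0.22) and ARR6 (-1.63 ± 0.45), and the list median was -0.55. Among the phosphotransfer genes AHP1 rose to 152, 289 and 111 CPM at 8 h, against 52.4, 55.4 and 57 CPM at 0 h, and AHP5 fell (-1.62 ± 0.28). CRF3, of the cytokinin response factors, had 18.4, 11.9 and 15 CPM at 8 h and 3.11, 2.9 and 0.508 CPM at 0 h and rose (2.82 ± 0.56), while CRF6 fell (-1.70 ± 0.37).

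Genes of cytokinin synthesis and activation split, with 3 of 11 tested higher and 6 lower, where 23.3% of all genes rose and 19.7% fell. The activating enzymes LOG1 (-3.31 ± 0.68) and LOG5 (-3.68 ± 0.92) fell furthest, and of the isopentenyltransferases, which make cytokinins, IPT3, IPT5 and IPT7 fell by 1.41, 0.93 and 1.93 on the log2 scale. IPT9, which modifies tRNA, rose (1.80 ± 0.46), as did IPT2 and LOG8. CKX6, a cytokinin oxidase that breaks the hormone down, had 17.5, 13 and 11.1 CPM at 8 h and 4.35, 6.92 and 3.55 CPM at 0 h (1.50 ± 0.42). The other 4 tested oxidases gave no call.

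Auxin response genes moved in both directions. Of 23 tested Aux/IAA genes, which encode the repressors and are themselves induced by auxin, 9 rose and 5 fell, where 23.3% of all genes rose and 19.7% fell. Their median of -0.01 lay beside that of all genes. IAA14, a repressor known from lateral root initiation, had 39.8, 16.8 and 27.8 CPM at 8 h and 0.829, 0.322 and 1.83 CPM at 0 h. IAA1, an early auxin-induced member, had 21.4, 32 and 19.7 CPM at 8 h and 7.15, 7.08 and 4.47 CPM at 0 h. Neither gene's libraries overlapped between the times (4.73 ± 0.56 for IAA14 and 1.97 ± 0.35 for IAA1). IAA5 had 14.9, 12.5 and 21.3 CPM at 8 h and 2 counts in all 3 libraries of 0 h, and IAA19 rose as well (1.75 ± 0.60). The 5 that fell, IAA8, IAA13, IAA3, IAA16 and IAA26, changed by -0.89 to -1.15. Without 1 library the number that rose was 6 to 8, and it was 7 when just the compared groups were fitted.

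GH3.6, which conjugates auxin to amino acids and is induced by auxin, had 26.7, 24.8 and 30.9 CPM at 8 h and 9.02, 8.69 and 10.2 CPM at 0 h (1.56 ± 0.27, adjusted p = 9.39e-06). Of the 6 tested GH3 genes 2 rose and 1 fell (0 or 1 fell without 1 library), where 23.3% of all genes rose and 19.7% fell. Their median of 0.03 lay beside that of all genes, 0.02. ARF5, the auxin response factor of organ initiation, rose (1.37 ± 0.27), and of the 13 tested response factors 1 rose and 5 fell. Of 15 tested transport genes 2 rose (0 to 3 without 1 library, 0 when just the compared groups were fitted) and 4 fell, the fallers including the efflux gene ABCB19 (-1.61) and the uptake carrier AUX1 (-1.09). In synthesis YUC6 (-2.46) and YUC3 (-4.92), flavin monooxygenases that form auxin, fell, and 0 of 5 tested synthesis genes rose.

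WOX11, a homeobox gene known to act in founder cells of adventitious roots, had 3.02, 2.66 and 7.82 CPM at 8 h and no count at 0 h. Its summed counts were at least 39.1-fold higher at 8 h, with 3 counts over the 0 h libraries as the floor (adjusted p = 5.02e-06). LBD16, a direct target of auxin response factors in root initiation, had 55.1, 57.2 and 38.3 CPM at 8 h and 12.6, 18.7 and 9.24 CPM at 0 h (1.90 ± 0.36, adjusted p = 4.31e-05). PLT3 (2.18 ± 0.43), of a family that maintains root meristems, rose too. The libraries of 8 h lay above those of 0 h for each of the 3 genes. KNAT6 (-1.23 ± 0.31) and SHR (-0.61 ± 0.25) fell. Of the 14 founder cell regulators tested 3 rose and 2 fell, where 23.3% of all genes rose and 19.7% fell. LBD29, WOX7 and PLT2 had no count, and GATA23 had 3.17, 2.88 and 3.01 CPM at 8 h and 0.726, 1.45 and 0.914 CPM at 0 h, without passing the test (1.57 ± 0.81, adjusted p = 0.117).

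Of the wound and regeneration regulators 5 of 13 rose and 3 fell, where 23.3% of all genes rose and 19.7% fell. ERF108 had 132, 78.4 and 111 CPM at 8 h and 17.6, 12.6 and 8.63 CPM at 0 h (3.05 ± 0.31), and its relative ERF114 had 68.5, 66.8 and 53.3 CPM at 8 h and 7.78, 9.66 and 2.64 CPM at 0 h (3.25 ± 0.50). ERF111 (3.44 ± 0.90), ERF113 (0.98 ± 0.34) and ERF115 (3.12 ± 1.28, adjusted p = 0.0467), of the same subgroup of ethylene response factors, were the other risers, ERF115 with an adjusted p up to 0.143 when 1 library was left out. WIND1 (-0.85 ± 0.32) and WIND2 (-1.69 ± 0.33), known as inducers of callus at wounds, fell.

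The machinery of ribosome production rose nearly as a block. Of 20 nucleolar genes 19 rose and 0 fell, with a median of 1.73, and of 13 genes of cytosolic ribosomal proteins 13 rose, with a median of 2.40, where 23.3% of all genes rose. FIB2, a fibrillarin that methylates ribosomal RNA, had 245, 221 and 332 CPM at 8 h and 31, 23.3 and 25.5 CPM at 0 h (3.32 ± 0.29, adjusted p = 1.46e-11). RPS6A, a small subunit protein, had 982, 1024 and 1156 CPM at 8 h and 146, 171 and 124 CPM at 0 h (2.84 ± 0.21). The lowest library of 8 h was several times the highest of 0 h for both genes, and the smallest change among the ribosomal protein genes was that of RPS5A (1.85 ± 0.21). Ribosomal proteins are encoded by near-identical copies. Reads aligned at several places were not counted for any gene, so the levels of single copies are uncertain. Such reads made up a larger share of each library of 0 h than of any library of 8 h. Their part in these rises was not tested.

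DNA replication genes rose in part, and no tested gene of G2 and mitosis was called higher. Of 20 replication genes 11 rose and 0 fell (median 1.07). MCM4, of the replicative helicase, had 20.5, 23.6 and 25.4 CPM at 8 h and 2.59, 5.79 and 7.11 CPM at 0 h (2.17 ± 0.35), and RNR1, the large subunit of ribonucleotide reductase, had 64.4, 94.5 and 80.7 CPM at 8 h and 21.3, 28.8 and 31.4 CPM at 0 h (1.56 ± 0.24). The replication licensing gene CDT1A (2.75 ± 0.53), the sliding clamp genes PCNA1 (2.23 ± 0.40) and PCNA2 (1.46 ± 0.25), and MCM2 (2.04 ± 0.38) rose as well. Of 22 tested genes of G2 and mitosis 0 rose and 5 fell, where 23.3% of all genes rose and 19.7% fell, and the list median was -0.18.

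MAD2, of the spindle checkpoint, had 20, 18.8 and 21.2 CPM at 8 h and 43.5, 44.1 and 28.2 CPM at 0 h (-0.95 ± 0.26), and TPX2, a spindle protein, changed by -1.54 ± 0.49. The B-type cyclin CYCB1;1, a marker of G2 cells, had 0.811, 0.887 and 1.55 CPM at 8 h and 1.04, 0.805 and 0.711 CPM at 0 h, with overlapping libraries. CYCD1;1, a D-type cyclin of the entry into the cycle, had 14.4, 10.8 and 10.6 CPM at 8 h and 97.7, 107 and 74.1 CPM at 0 h (-2.96 ± 0.31). CYCD3;2 rose (1.17 ± 0.42, adjusted p = 0.0217), with an adjusted p up to 0.174 when 1 library was left out. Inhibitors of the cell cycle fell in 4 of 13 cases, where 19.7% of all genes fell, and KRP5 rose (0.91 ± 0.33). SIM was among those that fell, with 12.6, 17.2 and 13.6 CPM at 8 h and 44.1, 48.8 and 42.1 CPM at 0 h (-1.64 ± 0.26).

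Promoters of 2 of these genes are shown as examples of short words known from growth genes, whose shares among promoters are given without a test. Each printed gene was picked among called members of its list whose windows overlapped no other gene and held the marked words. Of these it had the smallest adjusted p, so the presence of the words was fixed by the choice. Windows of 250 bases before the annotated start, from the RefSeq annotation of the TAIR10.1 assembly, were read for 19005 tested protein-coding genes of the nucleus and searched on both strands. The site II word TGGGCC, bound by TCP factors, was in 16.9% of all windows, in 22.5% of those of the 4435 genes that rose and in 11.7% of those of the 3742 that fell. The telo-box AAACCCTA was in 3.51%, 5.14% and 1.87% of them. Site II words were in 12 of 20 nucleolar windows and 11 of 20 replication windows, and the E2F word TTTCCCGC was in 6 of 20 replication windows, against 0.616% of all. FIB1, the other fibrillarin gene, had 372, 663 and 387 CPM at 8 h and 120, 85.6 and 111 CPM at 0 h (2.17 ± 0.24). Its window, chr5:21293897-21294146 on the plus strand, is printed 5′ to 3′ with the telo-box and both site II words in capitals.
FIB1: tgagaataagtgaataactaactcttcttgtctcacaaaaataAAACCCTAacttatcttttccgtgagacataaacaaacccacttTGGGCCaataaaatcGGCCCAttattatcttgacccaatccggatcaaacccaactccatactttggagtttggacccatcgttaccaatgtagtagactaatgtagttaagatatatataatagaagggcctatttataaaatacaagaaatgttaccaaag
The window of MCM2, chr1:16969964-16970213 on the plus strand, has 2 site II words and, 14 to 7 bases before the annotated start, the E2F word, in capitals. MCM2 had 16.6, 8.98 and 15.2 CPM at 8 h and 4.04, 2.9 and 2.94 CPM at 0 h.
MCM2: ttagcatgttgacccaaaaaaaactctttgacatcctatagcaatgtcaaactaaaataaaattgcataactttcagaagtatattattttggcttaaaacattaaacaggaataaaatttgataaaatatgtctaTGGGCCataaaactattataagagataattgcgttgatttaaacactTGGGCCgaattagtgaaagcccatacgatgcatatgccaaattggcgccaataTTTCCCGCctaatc
A match of letters does not show that a factor bound there.

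The largest rise of a gene group was that of the flavonol branch, the enzymes and regulators that make flavonols, protective pigments induced by light. Of 10 tested members 10 rose, with a median of 6.69. TT4, chalcone synthase at the entry of the branch, had 1808, 1186 and 1759 CPM at 8 h and 0.104, 0.966 and 0.305 CPM at 0 h (11.91 ± 0.48, adjusted p = 3.28e-19). F3H, the next oxygenase, had 1119, 1803 and 1519 CPM at 8 h and 6.95, 13.4 and 5.79 CPM at 0 h (7.43 ± 0.38). FLS1, flavonol synthase, had 847, 923 and 1030 CPM at 8 h and 0, 0.966 and 0.406 CPM at 0 h (11.15 ± 0.70). TT4 and FLS1 were below 1 CPM in each library of 0 h, and the times lay far apart for all 3 genes.

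The regulators of the branch appeared with its enzymes. MYB12 had 40.3, 58.3 and 50.8 CPM at 8 h and 1 count at 0 h, a 1250-fold difference by counts with a 95% interval of 224 to 49389 that covers counting error only. MYB111 had 26, 22.9 and 24.6 CPM at 8 h and no count at 0 h, at least 212-fold higher. The glycosyltransferase genes UGT78D2 (2.90) and UGT78D1 (1.56 ± 0.30) rose less. Upstream, in the general phenylpropanoid pathway, 8 of 15 genes rose and 2 fell (4 with RLE scaling or DESeq2, 0 to 2 without 1 library). C4H was among the risers, with 1855, 1844 and 1825 CPM at 8 h and 596, 712 and 451 CPM at 0 h (1.65 ± 0.22).

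Of 12 tested anthocyanin genes 4 rose and 1 fell, where 23.3% of all genes rose and 19.7% fell. The later enzyme steps stayed near the detection limit. MYB90, a transcription factor of anthocyanin synthesis, had 51.4, 52.5 and 55.7 CPM at 8 h and 0, 0 and 0.812 CPM at 0 h (7.38 ± 0.48), and MYB75 rose with it (5.89 ± 0.98). GSTF12, which carries the pigments to the vacuole, was at least 134-fold higher at 8 h. DFR, the first enzyme of the branch proper, had 0.516, 0 and 0.172 CPM at 8 h and no count at 0 h, and LDOX had 0.0738 CPM in 1 library of 8 h. In ahk3 ahk4 medial segments DFR had 302, 154 and 137 CPM at 8 h and no count at 0 h.

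Light-induced genes of the HY5 pathway went the same way in 8 of 13 cases, and 2 fell. ELIP1, which protects chloroplasts in bright light, had 732, 771 and 1002 CPM at 8 h and 0.622, 3.54 and 2.54 CPM at 0 h (8.60 ± 0.46). ELIP2 (7.68 ± 0.69), the photolyase gene PHR1 (3.42 ± 0.35) and HYH, a relative of HY5 (3.31 ± 0.33), rose too. HY5 itself had 44.9, 66.9 and 45.9 CPM at 8 h and 28.2, 25.8 and 37.6 CPM at 0 h (0.78 ± 0.26, adjusted p = 0.0144). PIF4, a growth regulator that light represses, had 0.664, 0.443 and 0.86 CPM at 8 h and 19.7, 24.3 and 28.9 CPM at 0 h (-5.16 ± 0.57).

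The TT4 window, chr5:4488226-4488475 on the plus strand, is shown with its G-box CACGTG, the word that HY5 is known to bind, in capitals.
TT4: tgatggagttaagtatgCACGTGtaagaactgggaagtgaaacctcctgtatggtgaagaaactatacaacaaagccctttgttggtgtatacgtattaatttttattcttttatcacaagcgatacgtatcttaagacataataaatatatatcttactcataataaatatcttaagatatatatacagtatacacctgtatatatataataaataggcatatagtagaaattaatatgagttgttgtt
LHCA4, an antenna gene that fell, was picked in the same way for holding this word in its window, chr3:17495034-17495283 on the minus strand.
LHCA4: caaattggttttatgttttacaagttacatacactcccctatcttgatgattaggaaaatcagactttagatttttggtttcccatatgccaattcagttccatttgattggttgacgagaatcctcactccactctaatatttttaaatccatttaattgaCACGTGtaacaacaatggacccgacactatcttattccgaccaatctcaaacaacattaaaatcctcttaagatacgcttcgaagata
The G-box was in 7.37% of all windows, in 6.88% of those of genes that rose and in 8.15% of those of genes that fell. It was in 4 of 10 flavonol windows and 4 of 18 antenna windows, lists that moved in opposite directions. The evening element AAATATCT was in 6 of 18 windows of clock genes, against 4.98% of all.

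Within photosynthesis the antenna and the carbon-fixing genes parted. Of 18 tested genes of light-harvesting proteins 0 rose and 14 fell, with a median of -2.72, and their summed level was 305 to 378 CPM at 8 h and 2526 to 2639 CPM at 0 h. LHCB1.5 had 36, 24.7 and 25.3 CPM at 8 h and 903, 957 and 823 CPM at 0 h (-4.96 ± 0.32). LHCA4 had 15.5, 22.4 and 17.5 CPM at 8 h and 281, 312 and 265 CPM at 0 h (-3.95 ± 0.28, adjusted p = 1.1e-13). No library of 8 h came near one of 0 h for either gene.

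Of 11 genes of Rubisco and the Calvin cycle, which fix carbon dioxide, 9 rose and 0 fell, with a median of 2.37. RBCS1B, a small subunit of Rubisco, had 99.8, 80.4 and 102 CPM at 8 h and 0, 1.45 and 1.12 CPM at 0 h (6.86 ± 0.61). FBA2, a plastid aldolase, had 60.8, 54.5 and 81.8 CPM at 8 h and 7.36, 5.15 and 8.02 CPM at 0 h (3.25 ± 0.33), and GAPB, of the plastid glyceraldehyde phosphate dehydrogenase, had 42.6, 38.7 and 30.2 CPM at 8 h and 3.11, 7.08 and 6.19 CPM at 0 h (2.78 ± 0.39). GAPA, the partner subunit of GAPB, and RCA, the activase of Rubisco, did not pass the test (-0.31 ± 0.33 and -0.91 ± 0.39). The LHCB1 and RBCS families hold near-identical copies. Reads aligned at more than 1 place were not counted for any gene, so the levels of single copies are uncertain.

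Chlorophyll synthesis genes rose in 4 of 10 tested cases and fell in 1, where 23.3% of all genes rose and 19.7% fell. CHLH, a subunit of magnesium chelatase, had 118, 109 and 87.4 CPM at 8 h and 34.2, 44.1 and 33.3 CPM at 0 h (1.50 ± 0.20). CHLG, chlorophyll synthase (2.79 ± 0.32), PORC (2.73 ± 0.44) and CHLI1 (1.79 ± 0.29) rose, and HEMA1, at the start of the pathway, fell (-0.85 ± 0.32).

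**Figure D2:**
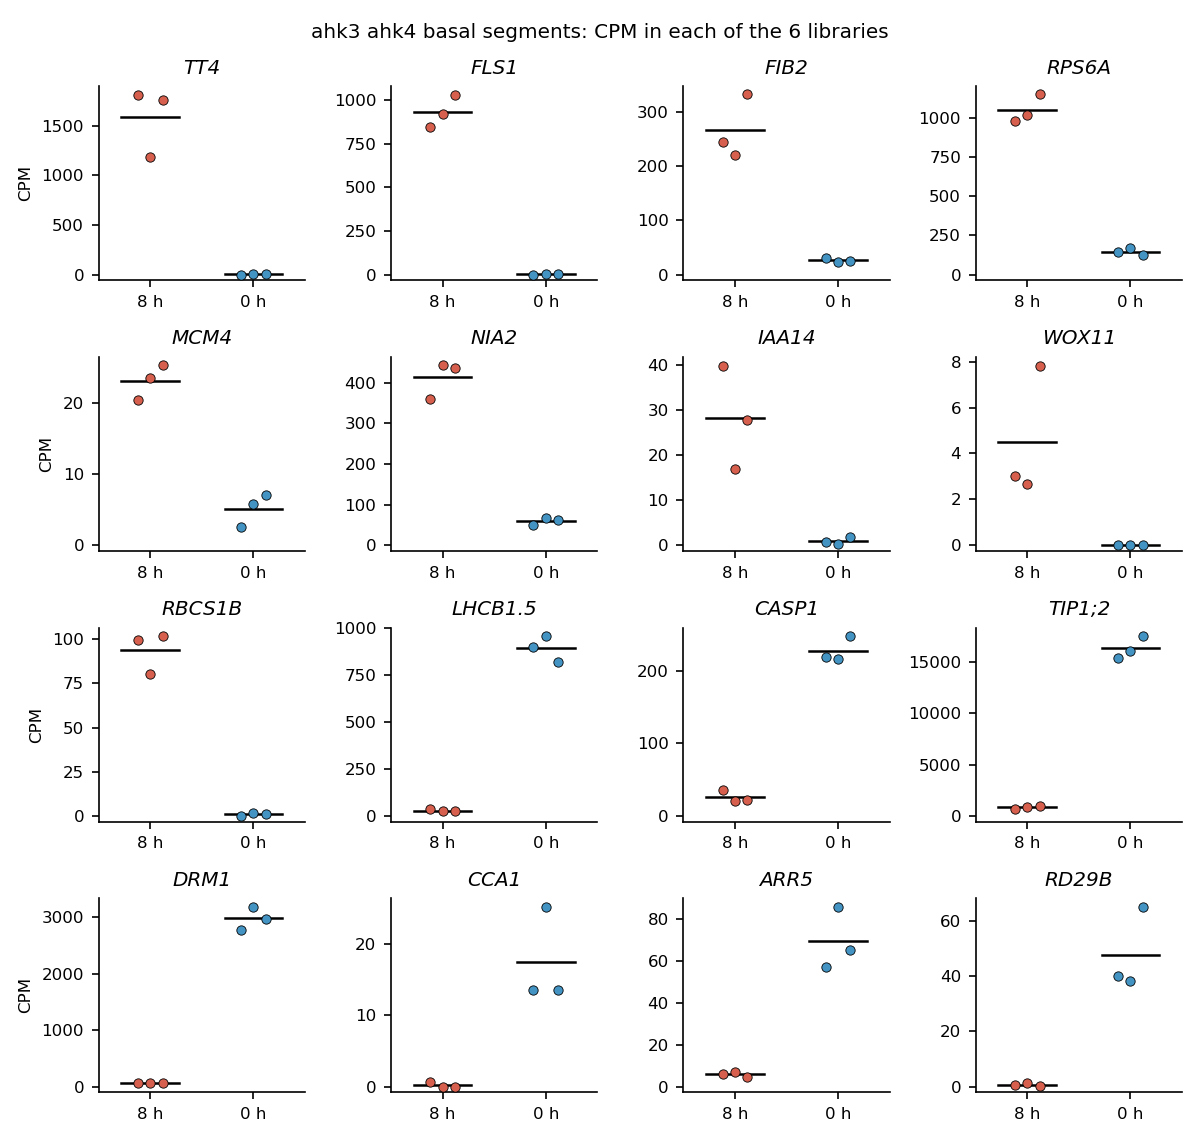
CPM (y axis, linear, a scale of its own in each panel) of 16 genes in the 3 libraries of 8 h (left) and the 3 libraries of 0 h (right) of ahk3 ahk4 basal segments, with the mean as a bar. The libraries of the 2 times do not overlap in any panel, and WOX11 has no count at 0 h.

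Genes of darkness and sugar starvation fell in 8 of 12 tested cases and rose in 0, with a median of -1.85. DRM1, a marker of dormant buds, had 72.5, 74.6 and 70.8 CPM at 8 h and 2782, 3185 and 2981 CPM at 0 h (-5.36 ± 0.54). KMD4, which directs phenylpropanoid enzymes and type-B regulators to degradation, had 16.5, 20.8 and 11.7 CPM at 8 h and 202, 180 and 189 CPM at 0 h (-3.54 ± 0.55). The starvation regulator BZIP1 (-4.28 ± 0.80) and the asparagine synthetase gene ASN1 (-3.03 ± 0.64) fell, and DIN1 and DIN10 had libraries that overlapped between the times (-0.03 ± 0.93 and 0.05 ± 0.61).

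Of 18 clock genes 9 fell and 3 rose, where 19.7% of all genes fell and 23.3% rose. CCA1, of the morning loop, had 0.664, 0 and 0 CPM at 8 h and 13.6, 25.1 and 13.5 CPM at 0 h (-6.02 ± 0.79). LHY (-1.93 ± 0.31), PRR7 (-3.32 ± 0.41) and LNK1 (-3.12 ± 0.39), which are expressed by day, fell, and the evening genes LUX (1.41 ± 0.37), FKF1 (2.65 ± 0.69) and ELF4 (0.95 ± 0.37) rose. No label gives the hour of day at sampling, and its part in these values was not tested.

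The Casparian strip, the lignin band of the endodermis, had the lowest list median of those plotted, -3.12. Of its 9 genes 0 rose and 8 fell, and their summed level was 81 to 114 CPM at 8 h and 791 to 846 CPM at 0 h. CASP1, which marks the membrane below the strip, had 36.1, 20.1 and 22.2 CPM at 8 h and 219, 217 and 248 CPM at 0 h (-3.12 ± 0.29, adjusted p = 8.98e-11). ESB1, a dirigent protein of the strip, had 37.3, 32.5 and 28.7 CPM at 8 h and 370, 413 and 351 CPM at 0 h (-3.52 ± 0.35). MYB36, the regulator of strip genes, had 12.4, 9.31 and 17.9 CPM at 8 h and 26.3, 30.1 and 28.1 CPM at 0 h and fell less (-1.09 ± 0.24). Suberin genes, of the same cell layer, fell in 3 of 12 cases (KCS2, FAR5 and ASFT), where 19.7% of all genes fell. The summed level of the 12 was 54.4 to 64.9 CPM at 8 h and 136 to 164 CPM at 0 h.

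Epidermal and wax genes fell in 9 of 16 tested cases and rose in 2. ATML1, a regulator of epidermal identity, had 20.1, 35.4 and 18.7 CPM at 8 h and 143, 108 and 179 CPM at 0 h (-2.54 ± 0.28), and FDH, of wax synthesis, fell (-2.52 ± 0.26). LTP1, a lipid transfer protein, rose (2.21 ± 0.31). The summed level of the list was 3189 to 4045 CPM at 8 h and 5138 to 6464 CPM at 0 h.

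Phloem genes fell in 5 of 13 tested cases and rose in 0, where 19.7% of all genes fell and 23.3% rose. SUC2, the sucrose loader of companion cells, had 5.98, 4.32 and 6.1 CPM at 8 h and 61.1, 53.6 and 76.2 CPM at 0 h (-3.53 ± 0.41), and the sugar exporters SWEET12 (-6.11 ± 0.55) and SWEET11 (-5.89 ± 0.82) fell further. APL, which sets phloem identity, had 7.45, 6.32 and 7.22 CPM at 8 h and 8.92, 10.9 and 7.11 CPM at 0 h, with no call (-0.35 ± 0.41). Xylem genes gave 2 calls of 13, both higher, which became 0 or 1 higher without 1 library and 0 higher and 1 lower when just the compared groups were fitted, and their summed level was 118 to 143 CPM at 8 h and 127 to 136 CPM at 0 h. Of 11 cambium genes KNAT1 was called (-1.16 ± 0.28), and the number that fell was 3 with RLE scaling or DESeq2 and 1 to 3 without 1 library.

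Markers of other cell types that a segment could hold were mixed. The root hair regulators COBL9 and RHD6 and the stomatal regulators SPCH and MUTE had no count in the 6 libraries. KAT1, a potassium channel of guard cells, had 6.27, 3.77 and 8.68 CPM at 8 h and no count at 0 h, and TIP2;3, listed here as a root epidermis gene, had 1.18, 1.66 and 0.43 CPM at 8 h and 75.1, 72.9 and 90.1 CPM at 0 h. The summed level of the root epidermis list was 1.72 to 2.33 CPM at 8 h and 72.9 to 90.1 CPM at 0 h. Its lowest and highest values at 0 h were those of TIP2;3 alone, which is also counted among the aquaporins. Of the 3 tested root epidermis genes 1 fell and 0 rose, with a median of 1.36. Of 4 tested stomatal genes 1 rose and 0 fell (0 or 1 without 1 library). Their list summed to 5.1 to 10.9 CPM at 8 h and 0.207 to 7.73 CPM at 0 h. The part of tissue composition in the results was not tested.

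Aquaporins, the water channels, fell in 15 of 18 cases and rose in 0 (median -2.54), and their summed level was 2743 to 3783 CPM at 8 h and 25388 to 28164 CPM at 0 h. TIP1;2, of the vacuole membrane, had 646, 886 and 1020 CPM at 8 h and 15399, 16075 and 17511 CPM at 0 h (-4.26 ± 0.31). PIP1;2, of the plasma membrane, had 142, 120 and 173 CPM at 8 h and 1857, 2031 and 1664 CPM at 0 h (-3.67 ± 0.27). PIP1;4 gave no call (0.00 ± 0.22), with 206, 244 and 240 CPM at 8 h and 220, 275 and 194 CPM at 0 h and overlapping libraries. Wall-loosening expansins went both ways, 5 of 10 tested higher and 2 lower, with EXPA10 (5.41 ± 0.69) and EXPA15 (2.71 ± 0.37) rising and EXPA11 at least 29.7-fold lower at 8 h.

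Genes of the drought hormone abscisic acid fell in 9 of 19 cases and rose in 1 (median -1.50). RD29B had 0.738, 1.33 and 0.344 CPM at 8 h and 40.2, 38.1 and 65 CPM at 0 h (-5.91 ± 0.70). The phosphatase genes HAI2 (-3.87 ± 0.57) and ABI2 (-3.15 ± 0.49), negative regulators of the signal, fell, and the cold-induced KIN2 rose (1.84 ± 0.31). Heat shock genes fell in 5 of 7 tested cases, HSP101 to 8.93, 8.76 and 11.9 CPM at 8 h, against 57.7, 50.9 and 62.9 CPM at 0 h, and HSP17.4 rose.

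In jasmonate signalling, induced early at wounds, MYC2 had 44, 30.8 and 35 CPM at 8 h and 155, 135 and 190 CPM at 0 h (-2.13 ± 0.25). Of 10 synthesis genes 4 fell and 0 rose, among them AOC4 (-2.68 ± 0.34) and LOX2, which had no count at 8 h and 5.18, 3.7 and 3.15 CPM at 0 h. CYP94B3, which inactivates the hormone, rose (3.24 ± 0.62). The brassinosteroid regulator BES1 had 50.5, 55 and 63.3 CPM at 8 h and 282, 261 and 280 CPM at 0 h (-2.29 ± 0.19, adjusted p = 5.13e-12), and 7 of 10 genes of that hormone fell with 0 rising.

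Ethylene synthesis split by enzyme. ACS2, an ACC synthase, had 15.5, 14.2 and 13.8 CPM at 8 h and 0.311, 2.25 and 3.15 CPM at 0 h (2.93 ± 0.44). ACS8 was at least 20.5-fold higher at 8 h, and ACS7 rose (3.19 ± 0.82). ACO4, an ACC oxidase of the last step, had 2.21, 3.55 and 3.95 CPM at 8 h and 26, 29.6 and 17.1 CPM at 0 h (-2.91 ± 0.51).

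Nitrate uptake and assimilation rose in 9 of 10 tested genes, with a median of 2.12. NIA2, a nitrate reductase, had 361, 444 and 435 CPM at 8 h and 50.7, 67.3 and 61.1 CPM at 0 h (2.79 ± 0.22, adjusted p = 2.22e-12). NRT1.1, the nitrate transporter and sensor, had 518, 727 and 447 CPM at 8 h and 121, 103 and 147 CPM at 0 h (2.19 ± 0.21), and NRT3.1, a partner of high-affinity transporters, had 132, 170 and 124 CPM at 8 h and 3.11, 3.7 and 9.85 CPM at 0 h (4.66 ± 0.37). The groups lay apart for each of the 3 genes. NRT2.1 rose with 1 library of 8 h standing above the rest, 21.2, 87.6 and 16.4 CPM at 8 h and 4.04, 1.29 and 0.609 CPM at 0 h.

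Outside the lists, the genes with the highest fitted changes were mostly silent at 0 h. AT4G18422, an uncharacterized protein, had 124, 375 and 153 CPM at 8 h and no count at 0 h, at least 1713-fold higher and at least 1174-fold without its highest library. AT5G62210, annotated as an embryo-specific protein, had 268, 1179 and 519 CPM at 8 h and 3 counts at 0 h, 5086-fold by counts with a 95% interval of 1740 to 24663. PSK1, the precursor of the growth peptide phytosulfokine, had 145, 154 and 117 CPM at 8 h and 0, 0 and 0.508 CPM at 0 h (9.40 ± 0.81), and the phosphate transporter PHT1;1 had 164, 399 and 210 CPM at 8 h and 0, 1.29 and 0.508 CPM at 0 h (8.91 ± 1.60). None of the 4 reached 2 CPM in any library of 0 h. At the other end OCT1, an organic cation transporter, had 0.369, 0 and 0 CPM at 8 h and 36.6, 43.5 and 30.7 CPM at 0 h (-7.90 ± 0.68). GolS1, galactinol synthase of stress-related sugars, had 2.95, 0.997 and 0.344 CPM at 8 h and 126, 127 and 111 CPM at 0 h (-6.34 ± 0.63).

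Among abundant transcripts, SAHH2, a hydrolase of the methylation cycle, had 3358, 9420 and 4883 CPM at 8 h and 205, 182 and 306 CPM at 0 h (4.67 ± 0.36). GRP7, an RNA-binding protein under clock control, had 9094, 15392 and 13094 CPM at 8 h and 3536, 3498 and 3742 CPM at 0 h (1.80 ± 0.29). CAT3, a catalase, had 1231, 898 and 1121 CPM at 8 h and 8144, 7946 and 8413 CPM at 0 h (-2.91 ± 0.23), and AT4G11320, a papain-type protease, had 305, 345 and 282 CPM at 8 h and 5870, 6317 and 6145 CPM at 0 h (-4.30 ± 0.28). Replicate 2 of 8 h was the highest for SAHH2 and GRP7, and the groups did not overlap for any of the 4 genes.

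WT basal segments, cut and sampled at the same times, gave 4099 genes higher (20.7%) and 3782 lower (19.1%). Genes called in both genotypes in the same direction numbered 3261 higher, 70.6% of the ahk3 ahk4 list and 79.6% of the WT list, and 2678 lower, 68.7% and 70.8% of them. The opposite call was made in WT for 13 genes that rose and 4 that fell in the mutant. A test of the difference between the changes, mutant minus WT, called 123 genes higher (0.621%) and 42 lower (0.212%), and leaving out 1 library moved these to between 79 and 129 and between 22 and 45.

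Rubisco and Calvin cycle genes were the list with the most differences of this kind, 6 of 11 higher in the mutant minus WT contrast where 0.621% of all genes were. In WT 2 of the 11 rose and 4 fell, with a median of -0.11 beside 2.37 in ahk3 ahk4. PRK, the kinase that regenerates the acceptor of carbon dioxide, had 20.1, 11.6 and 14.4 CPM at 8 h and 2.59, 3.38 and 3.05 CPM at 0 h in the mutant, against 5.59, 7.51 and 2.64 CPM at 8 h and 17.3, 17.7 and 20.2 CPM at 0 h in WT. RBCS1A had 103, 95.5 and 141 CPM at 8 h and 34, 31.5 and 30 CPM at 0 h in the mutant, against 32.1, 47 and 27.8 CPM at 8 h and 75.9, 57.3 and 89.2 CPM at 0 h in WT. Both rose in the mutant and fell in WT, and the mutant lay below WT at 0 h and above it at 8 h, without overlap. The difference of the changes was 4.18 ± 0.52 for PRK (adjusted p = 9.71e-06) and 2.89 ± 0.37 for RBCS1A (adjusted p = 1.28e-05). RBCS3B (3.69 ± 0.44), RBCS2B (7.13 ± 1.16), GAPB (2.71 ± 0.53) and FBA2 (2.37 ± 0.44) were the others, RBCS2B with 1 count at 0 h in the mutant. The RBCS genes are near-identical copies, and reads aligned at more than 1 place were not counted. Such reads made up 12.74% to 46.92% of a WT basal library at 8 h and 34.92% to 40.5% at 0 h. Their part in the differences between genotypes was not tested.

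Chlorophyll genes followed with 4 of 10. CRD1, a cyclase subunit of the pathway, had 21.7, 26.5 and 18.5 CPM at 8 h and 16.4, 8.85 and 18.7 CPM at 0 h in the mutant, against 13, 9.33 and 9.86 CPM at 8 h and 35.2, 30.6 and 36.9 CPM at 0 h in WT (difference 2.26 ± 0.36, adjusted p = 0.000406). CAO (4.22 ± 0.92, adjusted p up to 0.0906 without 1 library), PORB (2.15 ± 0.45) and CHLH (1.35 ± 0.28) differed as well. Antenna genes fell in both genotypes, 14 of 18 in ahk3 ahk4 with a median of -2.72 and 15 of 18 in WT with a median of -3.77. LHCB2.2 (4.37 ± 0.97) and LHCB5 (2.31 ± 0.58) were called in the difference, with adjusted p up to 0.0831 and 0.165 without 1 library, and the median difference over the list was 1.34, beside 0.05 over all genes tested.

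**Figure D3:**
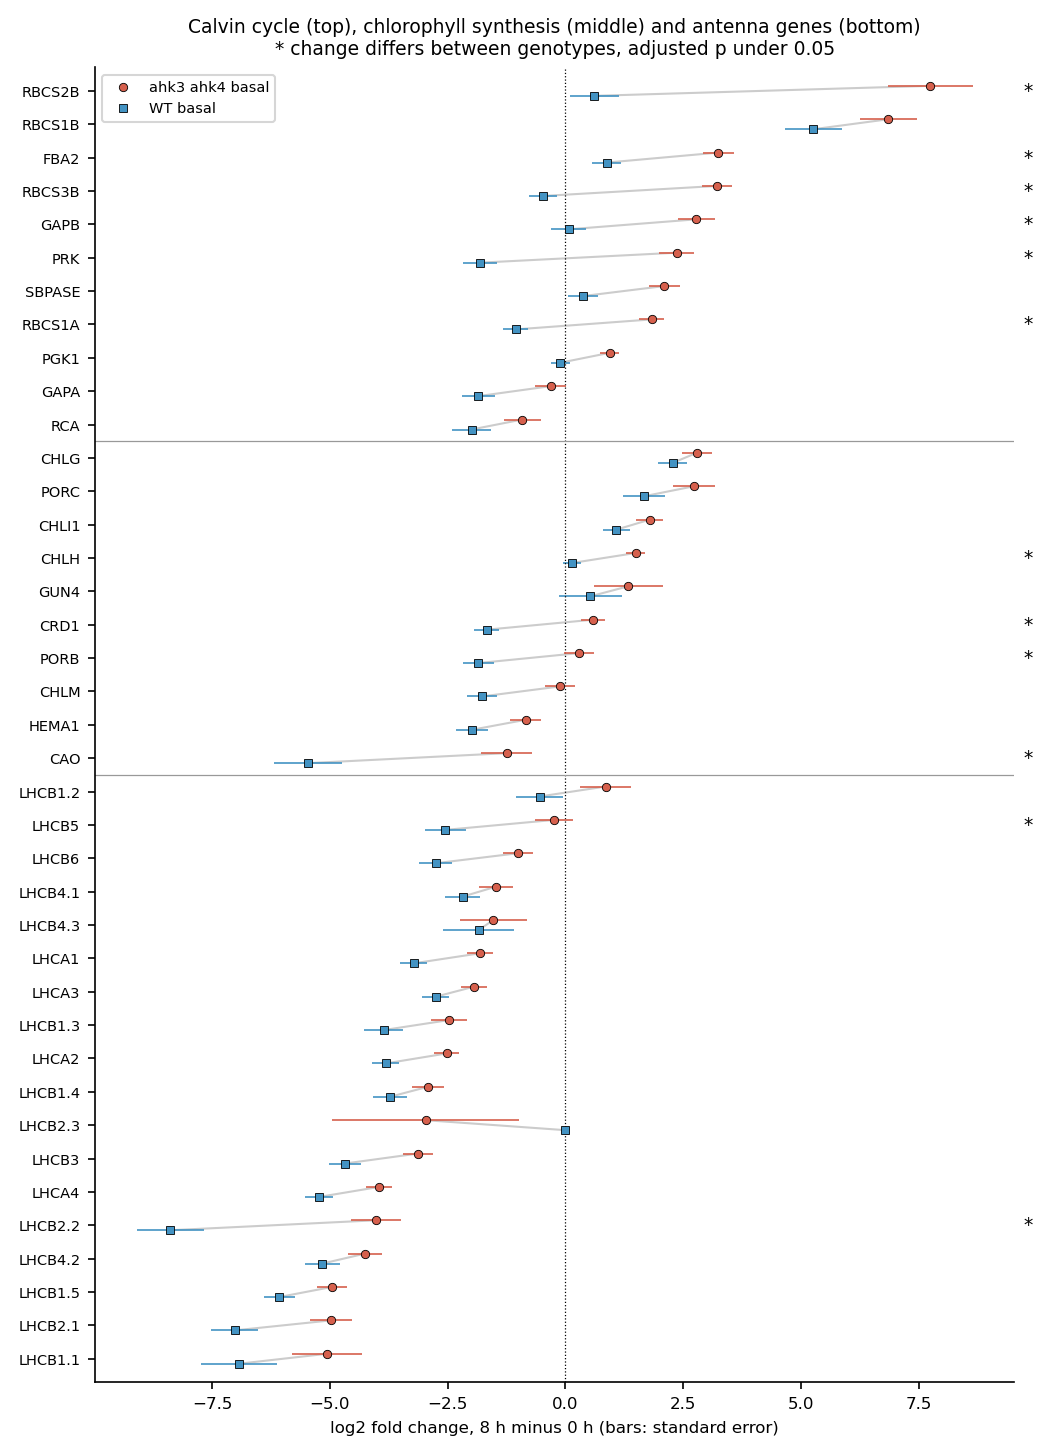
Log2 fold change, 8 h minus 0 h, with its standard error (x axis) for each tested gene of the Calvin cycle, chlorophyll synthesis and light-harvesting lists (rows), in ahk3 ahk4 basal (circles) and WT basal segments (squares). Stars mark the 12 genes whose change differed between the genotypes, and of these PRK and RBCS1A rose in ahk3 ahk4 and fell in WT.

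For some auxin and nitrate genes the change was higher in the mutant than in WT, where the auxin genes named here did not rise. Of the 23 Aux/IAA genes 3 were called higher in the difference, and of 10 tested nitrate genes 2. GH3.6 had 26.7, 24.8 and 30.9 CPM at 8 h and 9.02, 8.69 and 10.2 CPM at 0 h in the mutant, against 37.1, 22.5 and 35.8 CPM at 8 h and 38.7, 30.3 and 29.2 CPM at 0 h in WT. IAA1 had 21.4, 32 and 19.7 CPM at 8 h and 7.15, 7.08 and 4.47 CPM at 0 h in the mutant, against 36.8, 22.7 and 36.8 CPM at 8 h and 41.5, 47.8 and 24.7 CPM at 0 h in WT. The genotypes overlapped at 8 h and not at 0 h for both genes. The difference of the changes was 1.60 ± 0.37 for GH3.6 (adjusted p = 0.0188) and 2.21 ± 0.48 for IAA1 (adjusted p = 0.0138). IAA17, which fell in WT, gave 1.65 ± 0.38, and IAA6 was called at levels of few reads. Without 1 library the adjusted p reached 0.0761 for GH3.6, 0.0491 for IAA1, 0.0943 for IAA17 and 0.0937 for IAA6.

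NIA2 had 361, 444 and 435 CPM at 8 h and 50.7, 67.3 and 61.1 CPM at 0 h in the mutant, against 330, 285 and 349 CPM at 8 h and 138, 188 and 157 CPM at 0 h in WT. Its difference was 1.80 ± 0.30 (adjusted p = 0.000783), and that of NRT1.1 was 1.54 ± 0.28. The aquaporin PIP2;7 had 160, 163 and 193 CPM at 8 h and 240, 263 and 274 CPM at 0 h in the mutant, against 159, 179 and 215 CPM at 8 h and 962, 614 and 725 CPM at 0 h in WT (1.47 ± 0.28). As with GH3.6 and IAA1, the genotypes lay apart at 0 h.

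In the other direction RID2, a methyltransferase of ribosome assembly, had 152, 132 and 118 CPM at 8 h and 54.3, 53.8 and 33.7 CPM at 0 h in the mutant, against 224, 156 and 136 CPM at 8 h and 21.3, 22.4 and 24 CPM at 0 h in WT (-1.43 ± 0.34, adjusted p = 0.0247, up to 0.125 without 1 library). TT4 was called lower too, with 1808, 1186 and 1759 CPM at 8 h in the mutant and 1844, 1906 and 2537 CPM at 8 h in WT. At 0 h TT4 had no count in WT, so the fitted difference of -5.43 depends on the prior count, with 0.104, 0.966 and 0.305 CPM at 0 h in the mutant. GATA23, called lower in the difference, had no count in WT at 0 h either and lost its call in 11 of 12 fits without 1 library. WOX11 and LBD16 rose in WT as in the mutant, and neither was called in the difference.

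In ahk3 ahk4 medial segments 4098 genes were higher at 8 h (20.7%) and 3425 were lower (17.3%). Of the genes that rose in the basal segments 2964 rose there too, 64.2% of the basal list and 72.3% of the medial one, and 2184 fell in both, 56% and 63.8% of them. Basal minus medial, 507 changes were called higher (2.56%) and 418 lower (2.11%), and 172 and 199 when just the 4 compared groups were fitted. The regions gave the same count of rising nucleolar genes, 19 of 20 each.

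The change of Casparian strip genes was lower at the base for 6 of 9 in the test of the difference, where 2.11% of all genes were lower. ESB1 had 37.3, 32.5 and 28.7 CPM at 8 h and 370, 413 and 351 CPM at 0 h in basal segments, against 529, 375 and 255 CPM at 8 h and 1025, 657 and 738 CPM at 0 h in medial ones (-2.46 ± 0.45, adjusted p = 0.000691). MYB36 had 12.4, 9.31 and 17.9 CPM at 8 h and 26.3, 30.1 and 28.1 CPM at 0 h in basal segments, against 58.6, 50.8 and 71.3 CPM at 8 h and 36.6, 49.4 and 37.9 CPM at 0 h in medial ones (-1.63 ± 0.33). Medial segments lay above basal ones for both genes at each time. CASP1, CASP4 and PER64 were among the others, with differences from -2.12 to -1.61, and CASP4 reached an adjusted p of 0.0748 without 1 library.

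The change of Aux/IAA genes was higher at the base for 6 of 23 in the difference, where 2.56% of all genes were higher. IAA14 had 39.8, 16.8 and 27.8 CPM at 8 h and 0.829, 0.322 and 1.83 CPM at 0 h in basal segments, against 6.84, 9.39 and 9.85 CPM at 8 h and 3.01, 12.7 and 5.55 CPM at 0 h in medial ones (4.43 ± 0.71, adjusted p = 0.000243). IAA5, IAA1, IAA19, IAA17 and IAA6 were the others, and ARF5 (1.66 ± 0.39) was called in the same direction. When just the compared groups were fitted, IAA17 and ARF5 lost their calls. GH3.6 was called too (adjusted p = 0.0497) but lost the call under 10 of the 12 fits without 1 library, with an adjusted p up to 0.128. In medial segments 1 of the 23 rose and 7 fell. LBD16 missed the threshold in the difference (1.62, adjusted p = 0.0568).

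**Figure D4:**
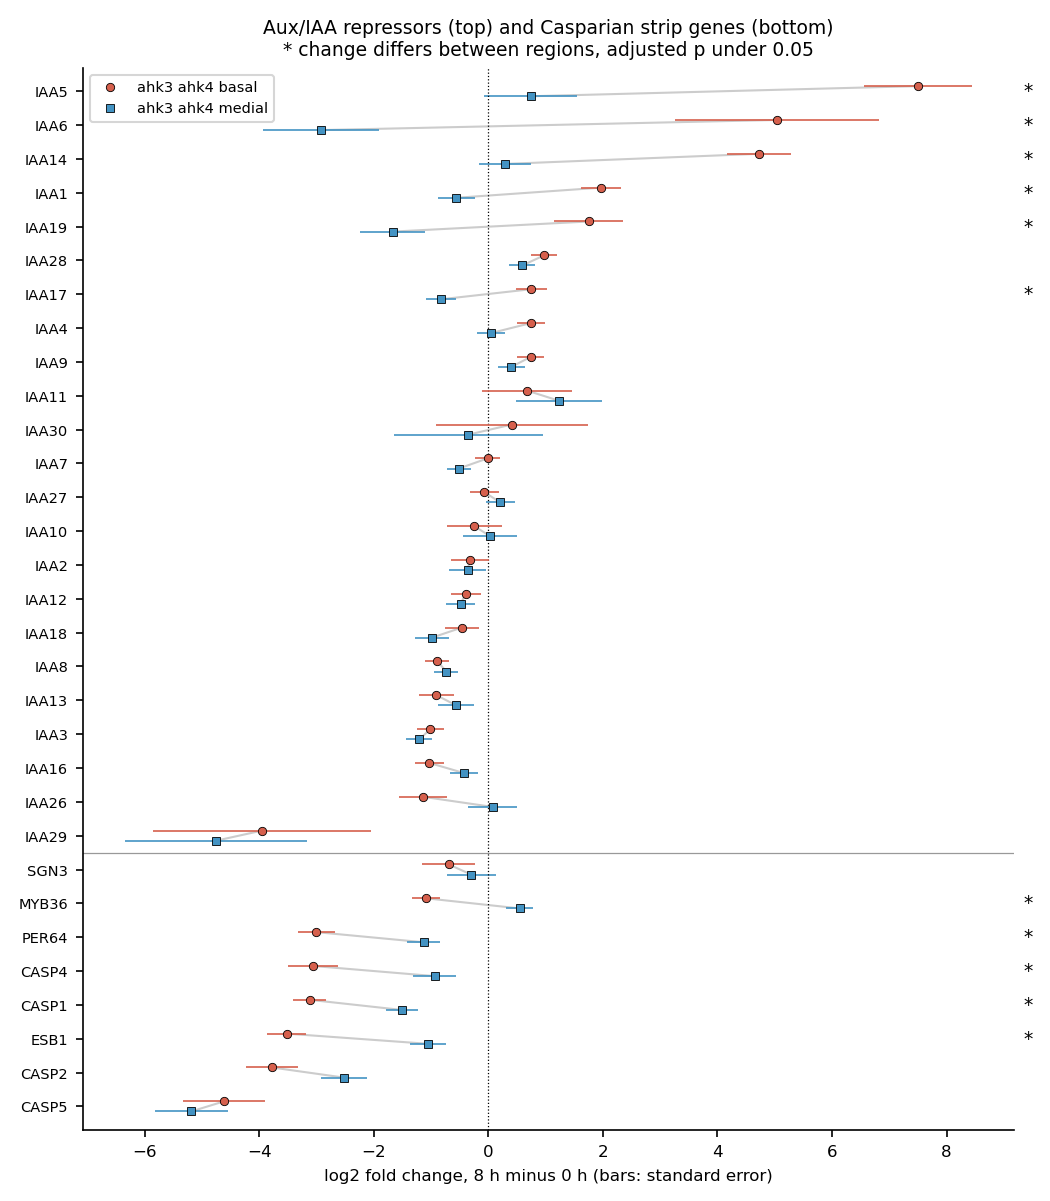
Log2 fold change, 8 h minus 0 h, with its standard error (x axis) for 23 tested Aux/IAA genes and 8 tested Casparian strip genes (rows), in ahk3 ahk4 basal (circles) and ahk3 ahk4 medial segments (squares). Stars mark the 11 genes shown whose change differed between the regions, 6 Aux/IAA genes with the basal change higher and 5 Casparian strip genes with the basal change lower.

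Ethylene synthesis genes differed between the regions as well. ACS2 had 15.5, 14.2 and 13.8 CPM at 8 h and 0.311, 2.25 and 3.15 CPM at 0 h in basal segments, against 2.16, 5.83 and 2.6 CPM at 8 h and 6.36, 6.08 and 7.94 CPM at 0 h in medial ones (3.87 ± 0.60, adjusted p = 0.000103). ACO4 had 2.21, 3.55 and 3.95 CPM at 8 h and 26, 29.6 and 17.1 CPM at 0 h in basal segments, against 56.8, 37.3 and 61.1 CPM at 8 h and 31.1, 12.8 and 24.6 CPM at 0 h in medial ones (-4.09 ± 0.69). NRT1.1, which rose at the base, had 252, 172 and 161 CPM at 8 h and 212, 209 and 192 CPM at 0 h in medial segments (2.25 ± 0.29, adjusted p = 3.47e-06). Calvin cycle genes rose in both regions, 9 of 11 at the base and 11 of 11 in medial segments, and 3 of the 11 were called in the difference. GAPA (-2.15, adjusted p = 0.00451) and RCA (-2.03, adjusted p = 0.0274) rose in medial segments and gave no call at the base. The change of RBCS2B, though not its level, was higher at the base (4.55, adjusted p = 0.0294). It had 11.4, 11.2 and 10.7 CPM at 8 h in basal segments, against 275, 87.4 and 155 CPM in medial ones. At 0 h its basal libraries held 0, 0.161 and 0 CPM, so the fitted difference rests on almost no reads there. RCA and RBCS2B lost their calls without 1 library (adjusted p up to 0.0765 and 0.105). Among aquaporins PIP2;7, TIP2;1, PIP2;4 and PIP1;3 were called higher in the difference, 4 of 18, and 0 were called lower.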

How the data were processed

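Total RNA of hypocotyl segments had been sequenced as QuantSeq 3' mRNA libraries from the forward kit, per the labels' protocols. The deposited files hold raw read counts per gene that the authors made with HTSeq, and DESeq2 is also named in the submitters' processing notes. The aligner, genome build, annotation and strand setting were not given in the sources used here. The 5 lines of each file that name no gene were left out of the 32833 loci. From these counts, 1 edgeR 4.0.16 model (R 4.3.3, limma 3.58.1) was fitted over all 36 libraries and 12 groups, with TMM scaling, the filter of filterByExpr (19819 genes), robust quasi-likelihood and 24 residual degrees of freedom. The common biological coefficient of variation was 0.336. Calls were made at an adjusted p (Benjamini-Hochberg) under 0.05 over all genes tested. The comparisons were 8 h minus 0 h in ahk3 ahk4 basal segments, the same in WT basal and in ahk3 ahk4 medial segments, and the differences between these changes, which share the ahk3 ahk4 basal libraries. A standard error here is the size of the fitted log2 fold change divided by the square root of the test's F statistic. Where a group had almost no counts it depends on the prior count, as the fold change does. Where a group had no count, the fold was computed against 3 counts in its summed libraries, and intervals are exact at 95% and cover counting error only. The fit was tested on simulated counts for 19232 genes in the comparison of ahk3 ahk4 basal 8 h against 0 h, where 96 of 100 genes raised and 89 of 100 genes lowered 4-fold were called, with 10 of the others. The changed genes were drawn above a floor of mean level, no other gene differed between groups, and the spread followed the fitted trend. In the data 43% of genes were called and some named genes had few reads, so these rates need not hold there.

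Symbols and promoter windows came from the RefSeq annotation of TAIR10.1, matched by locus, and 661 of the 684 loci in the 54 gene lists carry the listed name there. The members and lists were chosen with earlier results of these data known. Genes were named by rule, being the 15 highest and 15 lowest called changes with no overlap of libraries and a group mean of at least 20 CPM, the 10 called genes of highest mean at each time, the 6 members of smallest adjusted p of each list, AHK2, AHK3 and AHK4, and the 5 highest and 5 lowest called differences in each contrast of changes. Other members are named where their whole list is counted, and JAZ1 was picked after its values were seen. Single members of 2 lists are not reported here by name. Alternatives were RLE scaling, no filter, a stricter filter, DESeq2 1.42.0, the compared groups alone, the replicate number as a block, no robust fit and leaving out each library. The labels name biological replicates without saying how they were separated, so p-values measure the spread between these samples. Replicates of ahk3 ahk4 basal segments at 8 h and 0 h differed by more than sampling noise (chi-square per degree of freedom 9.795 to 66.82). The same measure was 11.47 to 29.94 in WT basal segments and 22.36 to 93.32 in ahk3 ahk4 medial ones, highest in medial segments at 8 h.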

Additional observations from a re-analysis of the deposited data

Results flagged for a closer look

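A test of the difference itself, in edgeR's quasi-likelihood model, singled out the values below. Between ahk3 ahk4 basal and WT basal segments, 123 changes from 0 h to 8 h were called higher in the mutant and 42 lower. The 5 highest differences on the log2 scale were RGF6 (10.73), LHCB2.2 (4.371), RBCS3B (3.686), AT2G10940 (3.655) and AT3G46280 (3.552). RGF6, a root meristem growth factor peptide gene, had 0.811, 0 and 0 CPM at 8 h and 0, 0 and 0.102 CPM at 0 h in the mutant, against 0.143, 0 and 0.115 CPM at 8 h and 34.4, 24.9 and 18.7 CPM at 0 h in WT. Its fitted difference rests on almost no reads in the mutant, depends on the prior count and had an adjusted p of 1 in 1 fit without a library. AT2G10940 had 12.3, 7.09 and 10.6 CPM at 8 h and 2.8, 6.28 and 9.04 CPM at 0 h in the mutant, against 8.31, 5.57 and 4.13 CPM at 8 h and 61.7, 34 and 40.1 CPM at 0 h in WT.

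The 5 lowest were TT4 (-5.426), UGT84A1 (-5.068), ELIP1 (-4.594), AT3G56260 (-3.65) and AT3G43270 (-3.254). TT4, UGT84A1 and ELIP1 had at most 0.113 CPM in any WT library of 0 h, so these 3 fitted differences depend on the prior count, and each lost its call in some fit without 1 library. UGT84A1, a glycosyltransferase of phenylpropanoids, had 270, 580 and 271 CPM at 8 h and 0.518, 2.74 and 2.03 CPM at 0 h in the mutant, against 348, 361 and 298 CPM at 8 h and 0, 0 and 0.0873 CPM at 0 h in WT. At 8 h the genotypes overlapped.

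Between ahk3 ahk4 basal and ahk3 ahk4 medial segments, 507 changes were called higher at the base and 418 lower. The highest were AT1G10585 (8.713), AT2G22590 (5.485), EXPA8 (5.477), AT2G34810 (5.043) and AT3G46280 (5.016). AT1G10585, a bHLH protein, had 47.1, 43.6 and 75.5 CPM at 8 h and 0, 0 and 0.203 CPM at 0 h in basal segments, against 0.09, 0.891 and 0.325 CPM at 8 h and 0, 0 and 0.861 CPM at 0 h in medial ones. EXPA8, an expansin, had at most 0.665 CPM in any basal library, and in medial segments 0.27, 0.729 and 0.541 CPM at 8 h and 15.9, 37 and 35.1 CPM at 0 h. The lowest were AT5G42530 (-9.46), GPT2 (-7.764), CYP83A1 (-6.428), MYB90 (-5.821) and NRT1.8 (-5.635). GPT2, a sugar phosphate carrier of plastids, had 20.5, 42 and 38.1 CPM at 8 h and 1.24, 0 and 1.32 CPM at 0 h in basal segments, against 168, 86.8 and 36.9 CPM at 8 h and no count at 0 h in medial ones. GPT2, MYB90 and NRT1.8 had no count in medial segments at 0 h, so their fitted differences depend on the prior count. AT1G10585 and MYB90 had an adjusted p of 1 in 1 fit without a library, and AT2G22590 and EXPA8 lost their calls in 11 and 8 of the 12 fits without 1 library.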

How the results depend on the processing

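The 4620 higher and 3898 lower genes became 4342 and 4213 with RLE scaling, 4175 and 3836 without the filter, 4516 and 4322 with DESeq2, 3771 and 3674 with just the compared groups fitted, and 4112 to 4310 and 3372 to 3494 when 1 library was left out. The changes higher in ahk3 ahk4 than in WT, 123, became 247 with DESeq2 and 79 to 129 without 1 library, and the lower ones, 42, became 110 and 22 to 45. The changes higher in basal than in medial segments, 507, became 172 in the compared groups alone, 691 with DESeq2 and 328 to 502 without 1 library. The lower ones, 418, became 199 in the compared groups alone, 693 with DESeq2 and 275 to 453 without 1 library. Both region counts, higher and lower, were 430 and 450 with RLE scaling and 370 and 414 without the filter, so which direction had more calls depended on the setting. The cause of these moves was not tested beyond the smaller number of samples in the fit alone and in those without 1 library. No called gene named here changed its sign, and genes without a call were not followed. Of 391 called genes that the rule names or the lists hold, 71 lost their call when some 1 library was left out, 18 with just the compared groups fitted and 6 with DESeq2. Of 30 such differences from WT 12 and of 59 from medial segments 22 lost theirs without some 1 library, and 3 and 18 with just the compared groups fitted (CAO, TT4, GATA23, IAA17, ARF5, GH3.6, PIP1;3 and MYB90 among them). Beside those given in the text, the changes of IPT2, IPT3, IPT5, IPT7, LOG8, IAA6, IAA13, IAA17, IAA19, IAA26, SHR, WIND1, ERF113, KRP5, HY5, ELF4, HEMA1, PIP2;7 and HSP17.4 lost their calls without some 1 library (adjusted p 0.0536 to 0.235). The difference of PIP1;3 between regions did so too (up to 0.168). Some counts of list members moved by over 1.5 times when 1 library was left out. Of cytokinin synthesis genes 2 to 5 fell, of Aux/IAA genes 3 to 5, of auxin response factors 3 to 5, of cell cycle inhibitors 2 to 4 and of chlorophyll genes 0 to 2, and of regeneration regulators 3 to 6 rose. With just the compared groups fitted, 5 suberin genes and 0 expansins fell.

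Same-numbered replicates of the 2 times deviated from their group means with correlations of 0.009, -0.043 and 0.069, and at 8 h those of ahk3 ahk4 basal and WT basal with 0.171, 0.096 and 0.183, where each number correlated best with its own, a hint from the data and not from the design. At 0 h the 2 genotypes gave -0.003, -0.023 and -0.059. The labels do not say what a number shares, and no comparison was treated as paired. With the replicate block 4612 genes were higher and 3939 lower, the differences from WT numbered 132 and 44, and those from medial segments 503 and 417, with LHCB5 and GATA23 losing their differences from WT. Depth limits the genes named with few reads (AHK4, ERF115, IAA6, GATA23, CYCB1;1), where a missed call does not show that a gene was unchanged.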
